A study of Mus musculus with 12 samples.

Results

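The tumour necrosis factor (TNF) superfamily was followed across sorted mouse CD4 T cells with and without Blimp1. Its members were all genes with a symbol starting with Tnfsf (ligands) or Tnfrsf (receptors), together with Tnf, Lta, Ltb, Fasl, Cd40lg, Cd70, Ltbr, Fas, Cd27 and Cd40. This rule used symbols alone and no measured value. It found 41 genes, 17 ligands and 24 receptors, among 17759 genes with a probe, and all 41 matched a RefSeq gene by identifier.

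TNF ligands are trimeric membrane proteins, some of them shed or secreted, that bind receptors with cysteine-rich outer domains. Receptors such as Fas and Tnfrsf1a have a death domain and can start apoptosis, while receptors such as Tnfrsf4 (OX40), Tnfrsf9 (4-1BB), Tnfrsf18 (GITR) and Cd27 recruit TRAF adaptors and activate NF-kappaB, which costimulates T cells. Regulatory T cells are known for high surface GITR and OX40, and activated effector T cells for inducing ligands such as Tnf, Cd40lg, Fasl and Tnfsf11 (RANKL).

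The samples were C57BL/6 T cells, with an age of 8 to 12 weeks in the labels, in 4 groups of 3 arrays. Naive CD4+CD44low T cells with a Foxp3 GFP reporter, either Blimp1-sufficient (Ctrl) or Blimp1-deficient (CKO), were transferred together at equal numbers into RAG1-/- hosts, which lack T and B cells of their own. After 6 to 8 weeks CD4+Foxp3+ cells (Treg, labelled pTreg) and CD4+Foxp3- cells (Teff) of each genotype were sorted by an allotype marker. Blimp1, encoded by Prdm1, is a transcriptional repressor that shapes effector differentiation in lymphocytes. Which Cre line deletes the gene in CKO cells is not stated in the labels. Cells of all 4 groups came from pooled spleen, mesenteric lymph nodes and large intestinal lamina propria and were stimulated in vitro for 4 h with PMA and ionomycin, so every level below is that of restimulated cells. Separate animals are not stated for the replicates of a group, and a p-value here reflects only the variation among these arrays, which may be technical.

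Array medians lay between 4.66 and 4.68 on the deposited log2 scale and the highest value was 14.98. The array labels were checked first. The Prdm1 probe was higher in CKO than in Ctrl, at 9.04 ± 0.52 against 5.77 ± 0.50 in Treg and 8.26 ± 0.64 against 4.92 ± 0.41 in Teff (SD, n = 3 each). Whether this probe lies in the deleted part is not known, so it does not check the genotype labels, and directions below are those of the arrays labelled CKO and Ctrl. Foxp3 was 8.02 ± 0.84 and 8.05 ± 0.67 in Ctrl and CKO Treg, and 4.58 ± 0.16 and 4.64 ± 0.19 in Teff. Cd3d, Cd3e and Cd3g were between 10.36 and 12.37 on all arrays, and Cd4 between 4.95 and 6.40. Markers of other cells were present to differing degrees. The mean of 13 neutrophil genes ranged from 5.94 to 9.97 over the arrays, and that of 10 measured myeloid genes from 5.68 to 7.86. Means of the B cell and of the stromal genes stayed between 4.46 and 5.23. Of the stromal genes, Pecam1 was 8.41 and 8.24 on CKO Teff 1 and 2 and 5.21 to 6.71 elsewhere. Krt8, another of them, reached 6.29 on Ctrl Treg 3. CKO Teff 1 and 2 stood apart by the mean of 7 basophil and mast cell genes (9.42 and 8.84, at most 6.19 on the other arrays). They also stood apart by the mean of a list of 8 CD8 and NK cell genes (6.80 and 7.55, at most 5.95 on the other arrays). In this list the 2 arrays were higher for Klra7, Klre1, Klrd1 and Eomes and not for the CD8 gene Cd8b1, which was 9.31 and 8.45 there and 8.80 to 10.02 elsewhere. Cd8a, Ncr1 and, in the basophil and mast cell list, Ms4a2 were not above the array median on any array. Kit, also in the basophil and mast cell list, was 7.68 and 8.75 on CKO Teff 1 and 2 and 6.17 to 8.24 elsewhere. Arrays are bulk samples, in which fewer cells of a type and less RNA per cell cannot be told apart.

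Promoters are shown for 4 of the 8 members whose signals separated Ctrl from CKO Treg without overlap. These 4 had an adjusted p under 0.05 when same-numbered arrays were taken as pairs. Motifs of Blimp1 and of the factors that PMA and ionomycin activate can thus be seen in place. The RefSeq table (GRCm38.p6) held 31 of the 41 members, with windows of 250 bases before to 50 bases after a start, and Tnfsf4 was not among them. The motifs searched, on both strands, were AGNGAAAG (Blimp1), TGANTCA (AP-1), GGAAAA (NFAT) and the NF-kappaB consensus by name. NFAT and NF-kappaB motifs can overlap at a GGAAA core. Capitals mark a match.
Promoters of the receptor Tnfrsf18 (chr4:156026072-156026371, plus strand) and of the ligands Tnfsf11 (chr14:78307994-78308293, minus strand), Lta (chr17:35205302-35205601, minus strand) and Tnfsf14 (chr17:57194132-57194431, minus strand), read 5′ to 3′:
Tnfrsf18: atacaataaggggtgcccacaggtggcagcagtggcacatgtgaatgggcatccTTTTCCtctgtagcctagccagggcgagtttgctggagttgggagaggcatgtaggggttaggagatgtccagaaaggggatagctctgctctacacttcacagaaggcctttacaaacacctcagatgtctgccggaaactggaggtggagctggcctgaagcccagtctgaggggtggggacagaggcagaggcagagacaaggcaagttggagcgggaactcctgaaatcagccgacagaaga
Tnfsf11: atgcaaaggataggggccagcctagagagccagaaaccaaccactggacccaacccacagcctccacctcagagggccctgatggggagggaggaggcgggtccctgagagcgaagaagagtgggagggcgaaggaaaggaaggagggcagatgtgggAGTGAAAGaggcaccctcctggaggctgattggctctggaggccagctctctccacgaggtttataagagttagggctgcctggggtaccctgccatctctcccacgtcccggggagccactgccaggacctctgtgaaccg
Lta: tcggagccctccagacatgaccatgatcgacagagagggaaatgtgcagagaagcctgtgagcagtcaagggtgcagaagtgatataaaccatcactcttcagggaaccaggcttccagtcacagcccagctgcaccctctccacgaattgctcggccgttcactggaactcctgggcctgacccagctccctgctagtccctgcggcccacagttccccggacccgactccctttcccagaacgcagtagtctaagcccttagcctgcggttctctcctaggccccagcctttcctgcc
Tnfsf14: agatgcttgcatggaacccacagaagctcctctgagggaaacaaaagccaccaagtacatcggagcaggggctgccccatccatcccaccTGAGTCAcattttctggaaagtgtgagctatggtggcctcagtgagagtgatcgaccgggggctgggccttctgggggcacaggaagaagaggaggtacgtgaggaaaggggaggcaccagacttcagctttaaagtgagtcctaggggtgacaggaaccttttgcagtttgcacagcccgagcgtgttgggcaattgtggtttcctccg

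The Tnfsf11 window held the Blimp1 motif as AGTGAAAG, from −92 to −85 relative to the start. The Tnfsf14 window held an AP-1 match from −160 to −154, the Tnfrsf18 window an NFAT match on the opposite strand from −196 to −191, and the Lta window none of the 4 motifs. Over all members in the table, the Blimp1 motif was found for 2 of 31 genes (Tnfsf11 and Tnfsf13b) and in 8.63% of all 32851 promoters. NF-kappaB matches were found for 4 member genes (Ltb, Tnfrsf8, Tnfrsf9 and Tnfrsf25) and in 8.46% of all promoters. AP-1 matches were found for 5 member genes (Fas, Tnfrsf8, Tnfrsf9, Tnfsf13b and Tnfsf14) and in 7.81% of all promoters, and NFAT matches for 12 member genes and in 23.4% of all promoters. A member gene was counted if any of its windows held a match, with 35 windows for the 31 genes. The percentages count single promoters, so the counts and percentages are not in the same unit. Such matches describe letters and not binding.

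Of the 41 members, 30 had a probe above the array median on at least 3 arrays and were tested, 13 ligands and 17 receptors. The other 11 lay between 4.18 and 5.18 on every array, near the array median. They were the ligands Tnfsf12, Tnfsf15, Tnfsf18 (the GITR ligand) and Tnfsfm13, and the receptors Ltbr (for lymphotoxin and Tnfsf14), Tnfrsf11a (RANK, the receptor of Tnfsf11), its decoy Tnfrsf11b, Tnfrsf14 (HVEM, another receptor of Tnfsf14), Tnfrsf17, Tnfrsf19 and Tnfrsf23. These signals are not levels, and a low signal says only that the probe did not stand above most others. On all 12 arrays, 11 ligands and 9 receptors were above the median. Among the tested, Tnfrsf8 was above it on 3 arrays, Tnfrsf13b on 7, Tnfrsf13c and Tnfrsf21 on 8, Tnfsf4 on 9, and Cd40, Tnfrsf22, Tnfsf13b, Tnfrsf10b and Tnfrsf26 on 10 or 11.

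**Figure D1:**
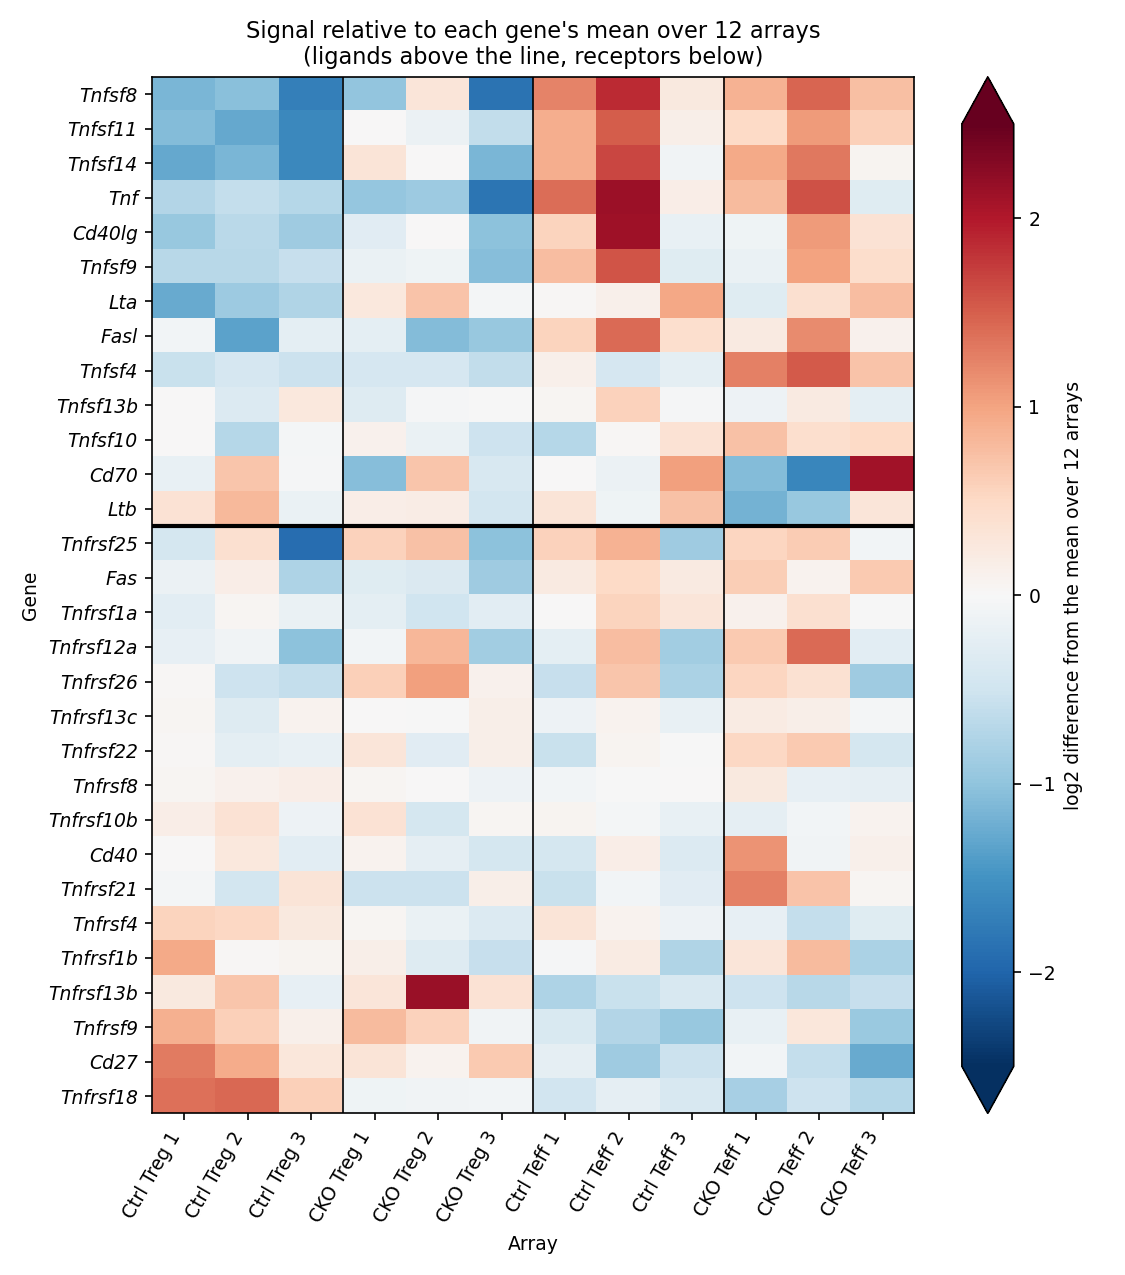
Signal of the 30 tested members on each of the 12 arrays as the log2 difference from that member's mean over all arrays, ligands above the line and receptors below. The upper ligand rows are low on Treg arrays and high on Teff arrays, with the highest values of 8 of 13 ligands within Ctrl Teff on Ctrl Teff 2, and the lower receptor rows run the other way.

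Same-group arrays were not equal across the family. Within Ctrl Teff, replicate 2 held the highest of the 3 values for 19 of the 30 members and replicate 3 the lowest for 16. Within CKO Teff, replicate 2 was highest for 16 and replicate 3 lowest for 17, and within CKO Treg replicate 3 was lowest for 19. The median SD of a member within its group was 0.32 in Ctrl Treg and 0.38 in CKO Treg, and for Teff it was 0.39 (Ctrl) and 0.57 (CKO). The neutrophil means of Ctrl Teff 1, 2 and 3 were 7.95, 9.97 and 6.28, and those of CKO Teff were 8.94, 9.41 and 7.04. In Teff, replicate 2 was thus highest and replicate 3 lowest in both measures. In Treg the neutrophil means had another order than the members, since CKO Treg 3 had the highest of its group (8.20) and Ctrl Treg 2, with the highest value for 15 members, had the lowest (6.25). The part of these markers in the members' order was not tested.

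Treg were compared with Teff first in Ctrl cells, which asks how the family differs between regulatory and effector cells of one host environment. Ligands were mostly lower and a few costimulatory receptors higher in Treg. Tnfrsf18 was higher in Treg by 1.50 ± 0.20 (log2 difference ± SE, where 1 unit is a 2-fold change of signal) and Tnfsf11 was lower by 2.18 ± 0.32, written below as negative for Treg minus Teff. These 2 members passed among 123 of 12119 genes, 1.01% of the genes tested. Unadjusted p-values under 0.01 were found for 10 of 30 members against 4.17% of all genes, and under 0.05 for 13 against 10.4%.

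GITR (Tnfrsf18) is a costimulatory receptor that Treg carry at rest. Its signal in Ctrl Treg was 12.09, 12.14 and 11.29 in replicates 1 to 3, and in Ctrl Teff 10.23, 10.47 and 10.31. Every Treg array lay above every Teff array, and the third Treg array was the nearest to them. The adjusted p was 0.00688, and it stayed under the threshold in each of the 12 fits that left out 1 array, but was 0.077 when only the arrays of these 2 groups were fitted. RANKL (Tnfsf11) drives osteoclast and lymphoid tissue development through RANK. It was 9.12, 8.92 and 8.60 in Ctrl Treg and 11.11, 11.72 and 10.35 in Ctrl Teff. The groups did not overlap, with a gap of more than 1 log2 unit between their nearest arrays. The difference was −2.18 ± 0.32 with an adjusted p of 0.0106. Without Ctrl Treg 2 it was −2.20 (adjusted p 0.0513), without Ctrl Teff 1 it was −2.15 (adjusted p 0.0548), and with only these 2 groups fitted the adjusted p was 0.0736.

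Other ligands had large differences that did not pass. CD30 ligand (Tnfsf8) costimulates T cells through Tnfrsf8. It was 7.91, 8.02 and 7.34 in Ctrl Treg against 10.30, 10.92 and 9.30 in Ctrl Teff, a difference of −2.41 ± 0.53 (adjusted p 0.0703). LIGHT (Tnfsf14), which binds HVEM and the lymphotoxin beta receptor, was 8.78, 8.91 and 8.45 against 10.96, 11.72 and 9.97, a difference of −2.17 ± 0.49 (adjusted p 0.0791). Neither gene's groups overlapped, and Ctrl Teff 3 was the lowest Teff array for both. Without it both passed, at −2.85 (adjusted p 0.0392) for Tnfsf8 and −2.63 (adjusted p 0.0333) for Tnfsf14. Tnfsf8 also passed without CKO Treg 2 (adjusted p 0.0316) and without CKO Treg 3 (adjusted p 0.0416), arrays that enter only through the shared estimate of the spread.

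The classical inflammatory ligands ran the same way with wider spread. Tnf itself, the main inflammatory cytokine of the family, was 11.58, 11.73 and 11.60 in Ctrl Treg and 13.71, 14.45 and 12.49 in Ctrl Teff. The Treg arrays were nearly equal and the Teff arrays spanned nearly 2 log2 units, and the difference was −1.91 ± 0.53 (adjusted p 0.162). Lymphotoxin alpha (Lta), secreted alone or anchored by Ltb, was 7.80, 8.16 and 8.32 against 9.10, 9.18 and 10.02, a difference of −1.34 ± 0.33 (adjusted p 0.105). A second Lta probe gave −1.08 (adjusted p 0.369). CD40 ligand (Cd40lg), the T cell signal to B cells and dendritic cells, was 5.64, 5.92 and 5.71 against 7.16, 8.71 and 6.41, or −1.67 ± 0.51 (adjusted p 0.219), and −1.03 (adjusted p 0.424) without Ctrl Teff 2. Fas ligand (Fasl), which kills cells that carry Fas, was 9.61, 8.35 and 9.44 against 10.23, 11.10 and 10.09, or −1.34 ± 0.42 (adjusted p 0.222). In all 4 genes each Ctrl Treg array was below each Ctrl Teff array, and for Tnf, Cd40lg and Fasl the highest value was that of Ctrl Teff 2. OX40 ligand (Tnfsf4) was near the array median, at 4.55, 4.70 and 4.58 in Ctrl Treg and 5.24, 4.70 and 4.87 in Ctrl Teff, and differed by −0.33 ± 0.20 (adjusted p 0.692).

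Among receptors, Cd27 and Tnfrsf9 followed Tnfrsf18. Cd27, the receptor of Cd70 and a marker of less differentiated T cells, was 12.76, 12.40 and 11.75 in Ctrl Treg and 11.25, 10.57 and 10.92 in Ctrl Teff. No Treg array fell into the Teff range, and the difference was 1.39 ± 0.33 (adjusted p 0.102). The other 2 Cd27 probes gave 1.58 (adjusted p 0.0457) and 1.15 (adjusted p 0.0353), and without CKO Teff 3 the probe used gave 1.39 (adjusted p 0.0498). 4-1BB (Tnfrsf9), induced on activated T cells, was 11.94, 11.64 and 11.17 against 10.67, 10.31 and 10.10, a difference of 1.22 ± 0.33 (adjusted p 0.154). Again the groups were apart for the probe used. A second Tnfrsf9 probe gave a smaller difference, 0.94 ± 0.49 (adjusted p 0.584).

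By counts, 12 of the 13 tested ligands were lower in Ctrl Treg, with a median difference of −1.34 and a range from −2.41 to 0.02, and 12 of 17 receptors were higher, with a median of 0.18. Over all genes the median was 0.01 and 52.4% were higher. Restricted to members above the median on all 12 arrays, 10 of 11 ligands were lower (median −1.34) and 5 of 9 receptors higher (median 0.34). The groups did not overlap for 14 of 30 members, against 14.3% of all genes. The 9 lower ones were 8 ligands (Tnfsf8, Tnfsf9, Tnfsf11, Tnfsf14, Tnf, Lta, Cd40lg and Fasl) and the receptor Fas, against 6.47% of all genes, and the 5 higher ones were the receptors Tnfrsf18, Cd27, Tnfrsf9, Tnfrsf13b and Tnfrsf8, against 7.83%. Of these 5 only Tnfrsf18, Cd27 and Tnfrsf9 were above the median on all arrays. Tnfrsf13b passed the filter through its Treg arrays (6 of the 7 above the median), so its difference supports nothing. Tnfrsf8 lay at the array median in both groups (means 4.68 and 4.54). It was above the median on 2 Ctrl Treg and 0 Ctrl Teff arrays, so its difference supports nothing either. Neutrophil means were 9.06, 6.25 and 8.75 in Ctrl Treg and overlapped those of Ctrl Teff, and the myeloid means also overlapped, at 6.22 to 7.31 against 5.68 to 7.56. The means of the CD8 and NK cell list did not overlap, at 5.32 to 5.65 in Ctrl Treg and 5.77 to 5.95 in Ctrl Teff, with Klrd1 at 4.74 to 5.85 against 7.52 to 8.26. Nor did those of the 3 measured B cell genes, all near the array median, at 4.54 to 4.72 against 4.46 to 4.53. The part of these cells was not tested.

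**Figure D2:**
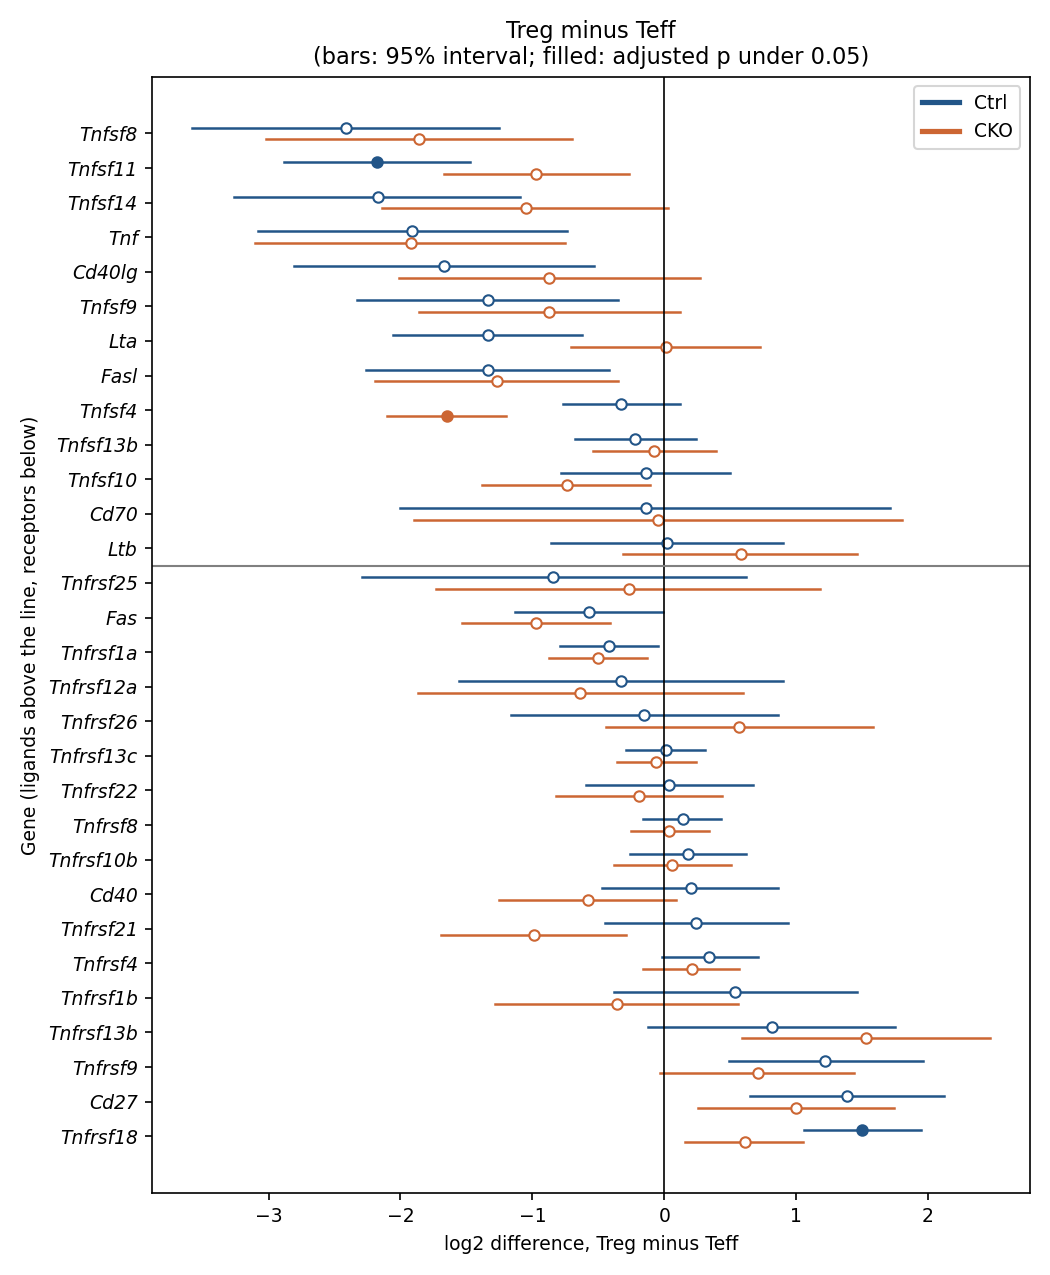
Log2 difference of Treg minus Teff for the 30 tested members in Ctrl (blue) and CKO (orange) cells, with 95% intervals as bars and filled points at an adjusted p under 0.05. In Ctrl, Tnfsf11 at −2.18 and Tnfrsf18 at 1.50 are filled, and in CKO Tnfsf4 at −1.65 is the only filled point.

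In CKO cells the same comparison of Treg with Teff gave 1 member among 43 genes past the threshold, 0.355% of the genes tested. That member was Tnfsf4, which was lower in Treg. Unadjusted p-values under 0.01 were found for 6 of 30 members against 3.97% of all genes, and under 0.05 for 12 against 10.8%. Both counts include Tnfrsf13b, which passed the filter through its Treg arrays, so its difference supports nothing. They also include Tnfrsf21, whose difference was −0.37 without CKO Teff 1 and 2. Tnfsf4 signals through OX40 and is best known on antigen-presenting cells, though activated T cells can carry it. It was 4.69, 4.69 and 4.50 in CKO Treg and 6.38, 6.64 and 5.82 in CKO Teff, so that only the Teff arrays stood clearly above the array median. The difference was −1.65 ± 0.20 (adjusted p 0.00827), with an adjusted p of 0.109 when only these 2 groups were fitted. CKO Teff 1 and 2, the arrays with the high basophil, mast cell and NK receptor genes, also had the higher Tnfsf4 values. Without both the difference was −1.19. This leaves 1 CKO Teff array, assumed to vary like the other groups, whose arrays supply the spread behind the adjusted p of 0.235. The part of these markers was not tested.

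Tnf and Tnfsf8 were lower in CKO Treg as well, without passing. Tnf was 11.36, 11.41 and 10.49 in CKO Treg and 13.11, 13.91 and 12.01 in CKO Teff, a difference of −1.92 ± 0.53 (adjusted p 0.174), and −2.42 (adjusted p 0.0425) without CKO Teff 3. Without CKO Teff 1 and 2 it was −0.92 (adjusted p 0.992, spread from the other groups). Tnfsf8 was 8.08, 9.36 and 7.22 against 9.92, 10.52 and 9.80, a difference of −1.86 ± 0.53 (adjusted p 0.183). For both genes the groups were apart in every array. Tnfsf11 was 10.22, 10.05 and 9.58 in CKO Treg and 10.69, 11.26 and 10.80 in CKO Teff, or −0.97 ± 0.32 (adjusted p 0.262). Lta was 9.32, 9.78 and 9.01 against 8.76, 9.46 and 9.84, with fully overlapping groups and a difference of 0.01 ± 0.33 (adjusted p 0.994, 95% interval −0.71 to 0.73).

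On the receptor side, Fas, the death receptor that limits activated lymphocytes, was 8.05, 8.00 and 7.48 in CKO Treg and 8.98, 8.44 and 9.02 in CKO Teff, a difference of −0.97 ± 0.25 (adjusted p 0.152). The dimmest of its 4 probes, with a mean of 4.65 over the arrays, gave 0.03. Tnfrsf13b (TACI), a receptor of BAFF and APRIL best known in B cells, was 5.48, 7.34 and 5.54 in CKO Treg and 4.66, 4.49 and 4.60 in CKO Teff. The difference was 1.53 ± 0.42 (adjusted p 0.174), and 0.92 without CKO Treg 2, the array far above the others. Tnfrsf21 (DR6), a death-domain receptor, was 4.45, 4.46 and 5.14 against 6.26, 5.70 and 5.05, or −0.99 ± 0.32 (adjusted p 0.251), with CKO Teff 1 and 2 again the highest arrays. Without them it was −0.37 (adjusted p 0.998, spread from the other groups). Tnfrsf18 was 10.60, 10.62 and 10.64 in CKO Treg and 9.87, 10.18 and 10.00 in CKO Teff, or 0.61 ± 0.20 (adjusted p 0.273). Its groups were apart but closer than in Ctrl.

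Of the ligands 11 of 13 were lower in CKO Treg than in CKO Teff, with a median of −0.87, while receptors were divided into 8 higher and 9 lower with a median of −0.06. The median of all genes was 0.03. Among members above the median on all arrays, 9 of 11 ligands were lower (median −0.87) and 4 of 9 receptors higher (median −0.27). The groups did not overlap for 11 of 30 members, against 13.7% of all genes. The 8 lower ones were Tnf, Fasl, Fas, Tnfsf4, Tnfsf8, Tnfsf10, Tnfsf11 and Tnfrsf1a (5.58% of all genes) and the 3 higher ones Tnfrsf18, Cd27 and Tnfrsf13b (8.15%), the last again through the filter.

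**Figure D3:**
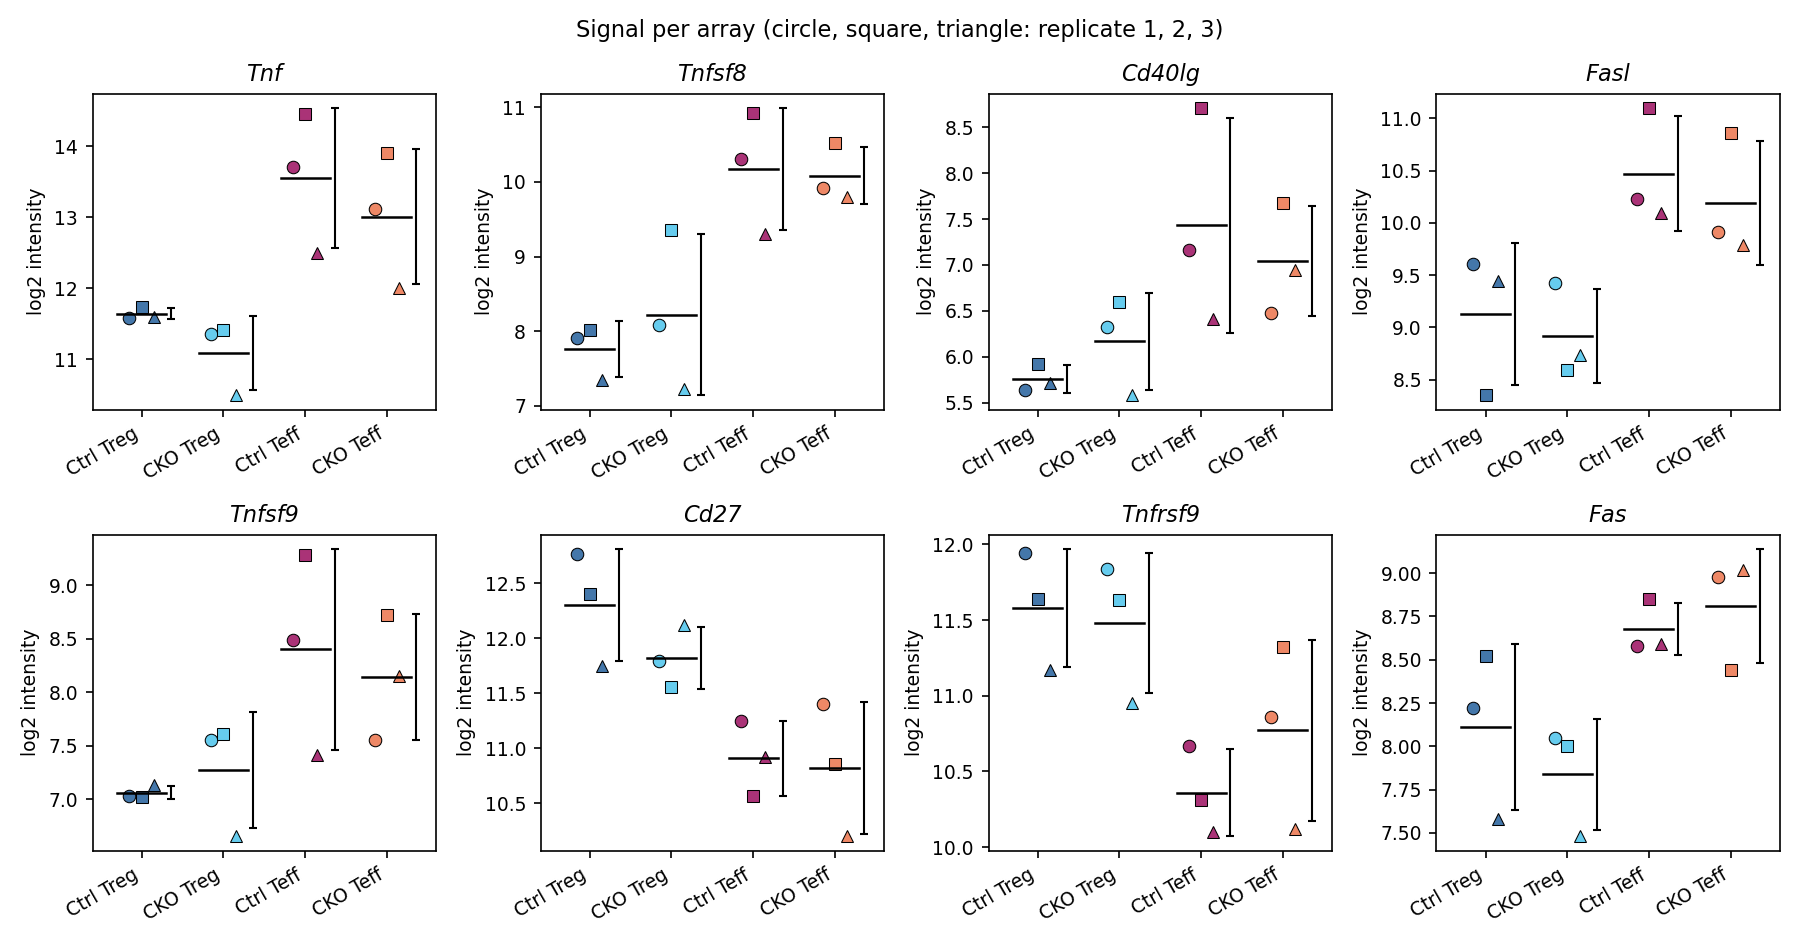
Log2 signal of 5 ligands (Tnf, Tnfsf8, Cd40lg, Fasl, Tnfsf9) and 3 receptors (Cd27, Tnfrsf9, Fas) on each array, with the mean of each group as a line and the SD as a bar (n = 3). Tnf reaches 14.45 on Ctrl Teff 2 and stays between 10.49 and 11.73 on the 6 Treg arrays, and Cd27 is between 11.56 and 12.76 on Treg arrays.

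CKO Treg were then compared with Ctrl Treg, which asks what Blimp1 deficiency goes with in regulatory cells. GITR was lower in CKO Treg, and lymphotoxin alpha, RANKL and LIGHT were higher, in each of the 3 same-numbered pairs. With arrays of the same number taken as pairs these 4 members passed, and without pairs none did. Without pairs limma called 12 genes, 0.099% of those tested, and no member. Unadjusted p-values under 0.01 were found for 4 of 30 members against 1.82% of all genes, and those under 0.05 for the same 4 against 5.33%. With pairs it called 264 genes, 2.18%, and 4 members. These comparisons and those of Treg with Teff share arrays (Ctrl Treg here and in the first comparison), so their values are set side by side without further comparison.

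Tnfrsf18 was 10.60, 10.62 and 10.64 in CKO Treg against 12.09, 12.14 and 11.29 in Ctrl Treg. The CKO arrays were almost equal, and all lay below the Ctrl arrays, of which the third was nearest. The difference was −1.22 ± 0.20 (95% interval −1.67 to −0.77), with an adjusted p of 0.0795 without pairs and 0.0127 with pairs. A second Tnfrsf18 probe gave −1.16 (adjusted p 0.0236 without pairs). Without Ctrl Treg 3 the difference was −1.50 (adjusted p 0.00206). Tnfrsf4 (OX40), encoded next to Tnfrsf18 on chromosome 4, was 13.71, 13.50 and 13.32 in CKO Treg against 14.23, 14.18 and 13.91 in Ctrl Treg. It was lower in all 3 pairs, by 0.52 to 0.67, and the difference of −0.59 ± 0.16 did not pass (adjusted p 0.41, and 0.0537 with pairs).

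Among the ligands, Lta was 9.32, 9.78 and 9.01 in CKO Treg against 7.80, 8.16 and 8.32 in Ctrl Treg. Each CKO array was above each Ctrl array, with pair differences of 1.52, 1.62 and 0.69. The fit gave 1.28 ± 0.33 with an adjusted p of 0.326 without pairs and 0.017 with pairs. A second Lta probe gave 1.07 ± 0.40 (adjusted p 0.788 without pairs). Tnfsf11 was 10.22, 10.05 and 9.58 against 9.12, 8.92 and 8.60. Its pair differences were close to each other, at 1.10, 1.13 and 0.97, and the fit gave 1.07 ± 0.32 with an adjusted p of 0.482 without pairs and 0.0217 with pairs. Tnfsf14, named after its values were seen, was 10.38, 10.06 and 8.92 against 8.78, 8.91 and 8.45. CKO Treg 3 lay just above the Ctrl arrays, and the difference was 1.07 ± 0.49 with an adjusted p of 0.941 without pairs and 0.0331 with pairs. Tnfsf4 was near the array median in both groups, and its difference was 0.01 ± 0.20 (adjusted p 1, 95% interval −0.43 to 0.46).

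The paired calls depended on single pairs. Without pair 1 or without pair 2 no member passed, and without pair 3 the members that passed were Lta, Tnfrsf18 and Tnfsf14. Without pair 1 the differences were 1.16 for Lta (adjusted p 0.121), −1.08 for Tnfrsf18 (adjusted p 0.104), 1.05 for Tnfsf11 (adjusted p 0.13) and 0.81 for Tnfsf14 (adjusted p 0.182). Without pair 2 they were 1.10 (adjusted p 0.104), −1.07 (adjusted p 0.0794), 1.04 (adjusted p 0.118) and 1.04 (adjusted p 0.158) in the same order. Without pair 3 they were 1.57 (adjusted p 0.0226), −1.51 (adjusted p 0.00906), 1.11 (adjusted p 0.112) and 1.37 (adjusted p 0.0347). All 4 genes kept their direction.

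**Figure D4:**
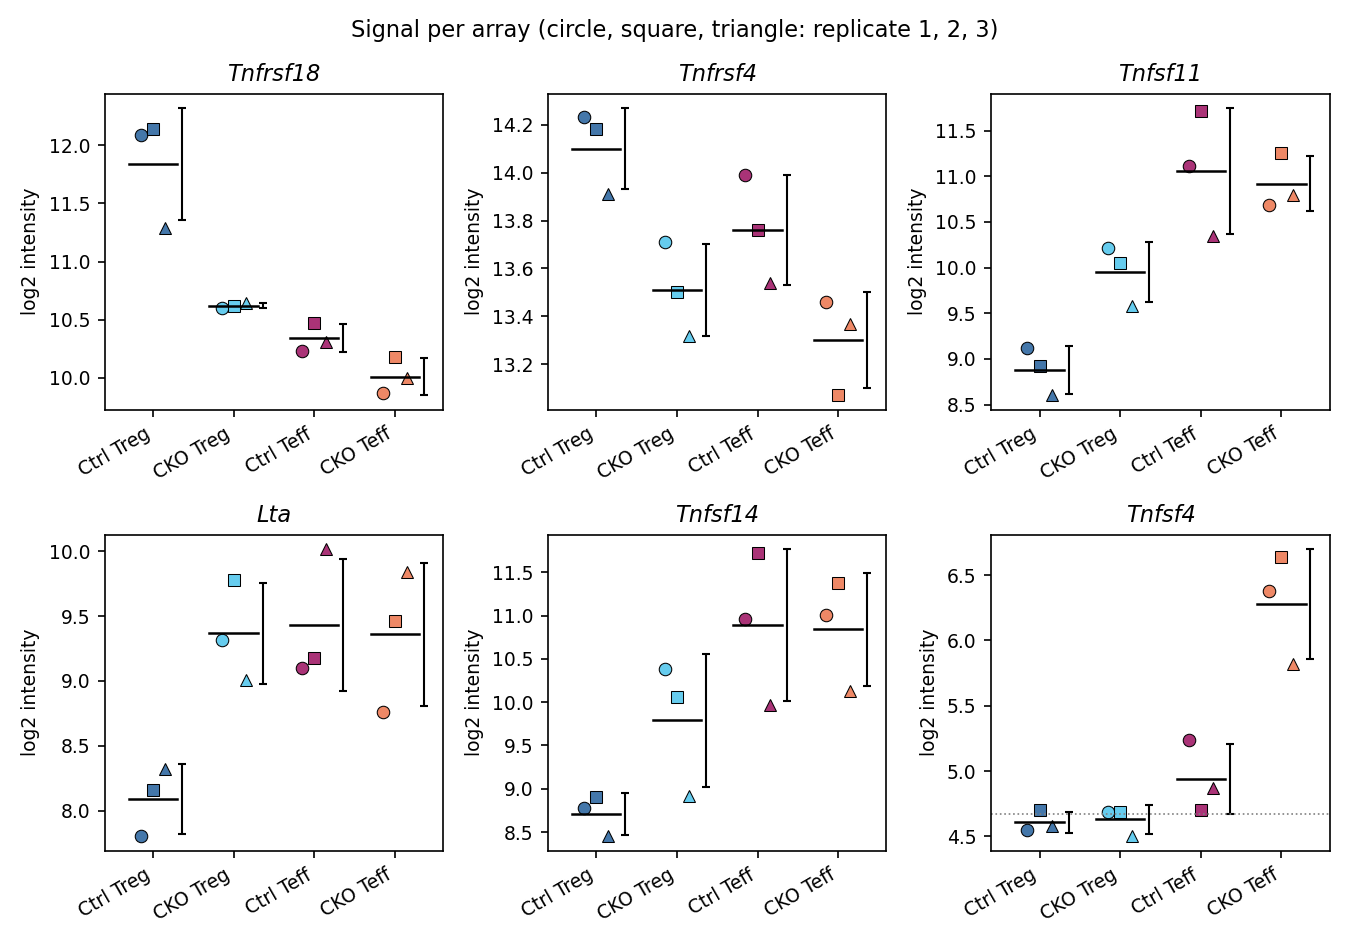
Log2 signal of Tnfrsf18, Tnfrsf4, Tnfsf11, Lta, Tnfsf14 and Tnfsf4 on each array, with the mean of each group as a line and the SD as a bar (n = 3), and the array median as a dotted line for Tnfsf4. Tnfrsf18 is 11.84 ± 0.48 in Ctrl Treg and 10.62 ± 0.02 in CKO Treg, Lta is 8.09 ± 0.27 in Ctrl Treg and at least 9.36 on average in the other 3 groups, and Tnfsf4 reaches 6.28 ± 0.42 in CKO Teff.

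Group means of the 4 genes that passed with pairs are set side by side here as a description, since the genes were chosen by their difference from Ctrl Treg. Tnfsf11 was 8.88 ± 0.26 in Ctrl Treg, 9.95 ± 0.33 in CKO Treg, 11.06 ± 0.69 in Ctrl Teff and 10.92 ± 0.30 in CKO Teff. Tnfsf14 was 8.71 ± 0.24, 9.79 ± 0.77, 10.89 ± 0.88 and 10.84 ± 0.65 in the same order. Lta was 8.09 ± 0.27, 9.37 ± 0.39, 9.43 ± 0.51 and 9.36 ± 0.55, and Tnfrsf18 was 11.84 ± 0.48, 10.62 ± 0.02, 10.34 ± 0.12 and 10.01 ± 0.16 (SD, n = 3). For Lta, the arrays of CKO Treg and of both Teff groups overlapped. For 3 other members, Tnf was 11.64 ± 0.08 in Ctrl Treg and 11.09 ± 0.52 in CKO Treg, a difference of −0.55 that did not pass (adjusted p 1). Tnfrsf9 was 11.58 ± 0.39 and 11.48 ± 0.46, with overlapping arrays. Cd27 was 12.30 ± 0.51 and 11.82 ± 0.28, and its arrays overlapped as well, with a difference of −0.48. Other Cd27 probes gave −0.77 (adjusted p 0.865 without pairs) and −0.53 (adjusted p 0.874 without pairs).

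Among ligands 8 were higher and 5 lower in CKO (median 0.05), and among receptors 6 were higher and 11 lower (median −0.14), with a median of 0.00 over all genes. Differences of the 30 members ran from −1.22 to 1.28. The groups did not overlap for 8 members, against 12.3% of all genes. Those higher in CKO were Lta, Tnfsf11, Tnfsf14 and Tnfrsf26 (5.96% of all genes), and those lower were Tnfrsf18, Tnfrsf4, Tnfrsf8 and Tnf (6.36%). Tnfrsf8 lay at the array median in both groups (means 4.54 in CKO and 4.68 in Ctrl). It was above the median on 2 Ctrl Treg, 0 CKO Treg and 1 CKO Teff arrays. It thus needed its Ctrl Treg arrays to pass the filter, and its difference supports nothing. Neutrophil means of CKO Treg were 8.06, 5.94 and 8.20, and each was below that of the same-numbered Ctrl Treg array (9.06, 6.25 and 8.75). Their part in the paired calls was not tested. Both groups had means of the CD8 and NK cell list between 5.22 and 5.65. The myeloid means overlapped, at 6.77 to 6.91 in CKO and 6.22 to 7.31 in Ctrl. In that list H2-Aa was 6.72, 8.76 and 7.23 in CKO Treg against 6.59, 6.73 and 5.87 in Ctrl Treg, higher in each pair. H2-Ab1 (8.81, 9.98 and 8.68 against 8.68, 8.59 and 7.35) and Cd74 (11.63, 11.80 and 10.42 against 11.06, 11.05 and 9.69) did the same. Lyz2 and Cd14 kept no single direction over the pairs. The part of these genes was not tested.

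In Teff, CKO against Ctrl asks the same of effector cells. Tnfsf4 had higher values on every CKO Teff array, and no member passed without pairs. Without pairs limma called 2 genes, 0.0165% of those tested, and 1 of 30 members had an unadjusted p under 0.01 against 0.949% of all genes (5 members against 4.17% for one under 0.05). With pairs it called 12 genes, 0.099%, and 1 member, Tnfsf4. Tnfsf4 was 6.38, 6.64 and 5.82 in CKO Teff against 5.24, 4.70 and 4.87 in Ctrl Teff. All CKO arrays were above all Ctrl arrays. The difference was 1.34 ± 0.20 (95% interval 0.89 to 1.79), with an adjusted p of 0.144 without pairs and 0.0497 with pairs.

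This difference was larger on the 2 arrays that stood apart. CKO Teff 1 and 2 carried the 2 higher Tnfsf4 values, basophil and mast cell means of 9.42 and 8.84 against 5.37 in CKO Teff 3 and 4.85 to 6.19 in Ctrl Teff, and means of the CD8 and NK cell list of 6.80 and 7.55 against 5.93 and 5.77 to 5.95. Mcpt8, a basophil protease, was 10.85, 10.18 and 5.12 in CKO Teff 1 to 3. In the myeloid list H2-Aa was 7.06 to 8.63 on the CKO Teff arrays and 4.70 to 6.71 on those of Ctrl Teff. On CKO Teff 3 and Ctrl Teff 3, H2-Ab1 was 8.96 and 6.96 and Cd74 was 10.01 and 8.19, though the groups overlapped for both genes. The myeloid mean of CKO Teff 3 was 6.65, within the Ctrl Teff range of 5.68 to 7.56. The part of these genes in the Tnfsf4 difference was not tested. On CKO Teff 3 alone, whose means of both lists were within the Ctrl Teff range, the difference was 0.88. A single array has no spread of its own, and with the spread of the other groups the adjusted p was 0.654 without pairs. Without CKO Teff 3 it was 1.57 (adjusted p 0.00424). In the paired fit the adjusted p was 0.191 without pair 1, 0.0449 without pair 2 and 0.0149 without pair 3. Without pair 3, where both remaining CKO Teff arrays were the 2 that stood apart, 3 members passed, the others being Cd70 and Ltb, 2 ligands named after their values were seen.

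For Tnfrsf18, Tnfsf11 and Lta no difference passed between the Teff genotypes. Tnfrsf18 was 9.87, 10.18 and 10.00 in CKO Teff against 10.23, 10.47 and 10.31 in Ctrl Teff, lower in each pair, and the difference of −0.32 ± 0.20 did not pass (adjusted p 1, 95% interval −0.77 to 0.13). Tnfsf11 differed by −0.14 ± 0.32 (95% interval −0.84 to 0.56) and Lta by −0.08 ± 0.33 (95% interval −0.80 to 0.65), both with an adjusted p of 1. For Tnfsf11 the sign turned without Ctrl Teff 2 (0.19), and for Lta without Ctrl Teff 3 (0.22) or CKO Teff 1 (0.22).

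Of 13 ligands 2 were higher and 11 lower (median −0.24), and of 17 receptors 10 were higher and 7 lower (median 0.18). Over all genes the median was −0.02 and 44.2% were higher. Differences ran from −0.93 for Ltb, which anchors lymphotoxin at the membrane, to 1.34 for Tnfsf4. Ltb was 8.40, 8.63 and 9.88 in CKO Teff against 9.91, 9.47 and 10.32 in Ctrl Teff, with overlap through CKO Teff 3. Groups did not overlap for 5 members, against 6.77% of all genes. The higher ones were Tnfsf4, Tnfsf10 (TRAIL, a ligand that induces apoptosis) and Tnfrsf21 (2.88% of all genes), and the lower ones Tnfrsf4 and Tnfrsf18 (3.89%). Tnfrsf4 was 13.46, 13.07 and 13.37 in CKO Teff against 13.99, 13.76 and 13.54 in Ctrl Teff. Neither Tnfrsf4 nor Tnfrsf18 passed in Teff, with or without pairs.

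**Figure D5:**
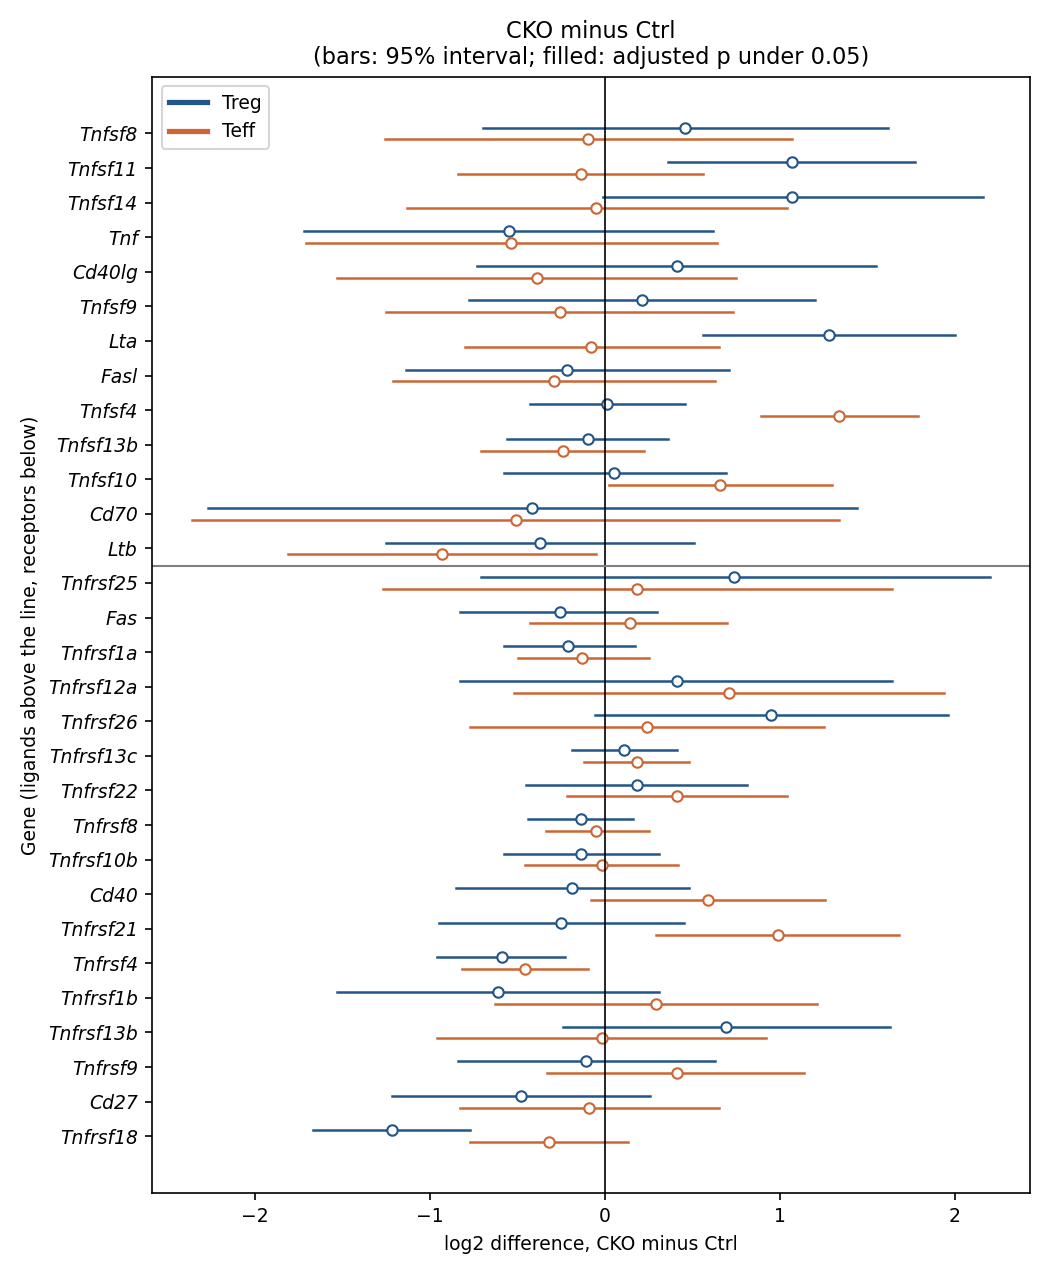
Log2 difference of CKO minus Ctrl for the 30 tested members in Treg (blue) and Teff (orange), with 95% intervals as bars and open points where the adjusted p without pairs was not under 0.05. Lta at 1.28 and Tnfrsf18 at −1.22 lie farthest from 0 in Treg, and Tnfsf4 at 1.34 in Teff.

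Whether the genotype difference itself differed between Treg and Teff was tested as an interaction, the difference in Treg minus that in Teff. Without pairs it called 2 genes, 0.0165%, and no member. Of 30 members 1 had an unadjusted p under 0.01, against 0.693% of all genes, and 5 had one under 0.05, against 3.48%. Tnfsf4 had −1.32 ± 0.29 (unadjusted p 0.000834, adjusted p 0.919), −1.55 (adjusted p 0.0346) without CKO Teff 3, and −0.86 (adjusted p 0.995) without CKO Teff 1 and 2. The other 4, given because they complete the count, were Lta with 1.35 ± 0.46, Tnfsf11 with 1.21 ± 0.45, Tnfrsf18 with −0.90 ± 0.29 and Tnfrsf21 with −1.23 ± 0.45, all with an adjusted p of 1. With pairs no member passed either. The lowest adjusted p-values with pairs were 0.133 for Tnfsf4, 0.154 for Lta and Tnfsf11, 0.172 for Tnfrsf1b and 0.205 for Tnfsf14. Those of Tnfrsf18 and Tnfrsf21 were 0.225 and 0.23. The differences seen in 1 cell type are therefore not shown to be absent from the other.

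Other members are described by their values. Cd70, the ligand of Cd27, was 8.97, 9.84 and 9.11 in Ctrl Treg, 8.09, 9.84 and 8.75 in CKO Treg, and 9.16, 9.01 and 10.18 in Ctrl Teff. In CKO Teff it was 8.06, 7.52 and 11.25, an SD of 2.02, the widest of any tested member in any group, with CKO Teff 1 and 2 the lowest of all 12 arrays. Tnfrsf25 (DR3), the receptor of Tnfsf15, had the third array as the lowest of each group, at 7.90, 8.78, 8.91 and 9.74. Tnfsf9 (4-1BB ligand) was 7.03, 7.02 and 7.13 in Ctrl Treg against 8.49, 9.28 and 7.41 in Ctrl Teff, without overlap. Of the receptors of Tnf, Tnfrsf1a had group means from 4.93 to 5.55 and Tnfrsf1b from 5.50 to 6.11. Tnfrsf12a, the receptor of Tnfsf12, had group means from 5.87 to 6.92. Cd40, Tnfrsf8, Tnfrsf10b, Tnfrsf13c, Tnfrsf22 and Tnfsf13b (BAFF) had group means between 4.50 and 5.47.

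Several members are neighbours in the genome, with no other protein-coding gene between them in the RefSeq annotation. Ltb, Tnf and Lta adjoin on chromosome 17, as do Tnfsf9, Cd70 and Tnfsf14, and Tnfrsf4 and Tnfrsf18 adjoin on chromosome 4. Between Treg genotypes Tnfrsf18 and Tnfrsf4 were both lower in CKO without overlap, with differences of −1.22 and −0.59. In the 2 runs on chromosome 17 the signs were mixed, as Lta differed by 1.28, Tnf by −0.55 and Ltb by −0.37, and Tnfsf14 by 1.07, Tnfsf9 by 0.21 and Cd70 by −0.42. Of these 8 genes Tnfrsf18, Lta and Tnfsf14 passed with pairs. Between Treg and Teff of Ctrl cells the differences were −1.34 for Lta, −1.91 for Tnf and 0.02 for Ltb. Other members adjoin as well. Between Treg genotypes the neighbours Tnfrsf1b (−0.61) and Tnfrsf8 (−0.14) were both lower in CKO, and Tnfrsf26 (0.95) and Tnfrsf22 (0.18) both higher. Tnfsf4 (0.01) and Fasl (−0.22), in a run with the untested Tnfsf18, had opposite signs. Tnfsf8 (0.46) adjoins the untested Tnfsf15. None of these passed, with or without pairs.

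Genes that act downstream of these receptors were taken from a list of 45 TRAF adaptors, caspase and kinase partners, NF-kappaB subunits and inhibitors, of which 40 were on the array and 39 tested. Between Ctrl Treg and Ctrl Teff 1 of 39 passed, against 1.01% of all genes. Traf5, an adaptor of OX40, CD27 and GITR signalling, was lower in Treg at 5.92 against 6.73, a difference of −0.82 ± 0.13 (adjusted p 0.0159). A second Traf5 probe gave −0.07 and the mean of its probes −0.45 (adjusted p 0.479), and the call was lost in 8 of 23 alternatives, among them the fits without Ctrl Treg 2 (−0.80, adjusted p 0.0862), without Ctrl Treg 3 (−0.75, adjusted p 0.0595) and without Ctrl Teff 1 (−0.83, adjusted p 0.0715). Rel, an NF-kappaB subunit active in lymphocytes, was 7.34 against 8.47, or −1.14 ± 0.35 (adjusted p 0.212), and −1.12 ± 0.35 in CKO (adjusted p 0.236), where it was −0.51 without CKO Teff 1 and 2. Cyld, a deubiquitinase that restrains NF-kappaB, was 9.50 against 8.84, or 0.66 ± 0.18 (adjusted p 0.152). The list's median was 0.05 in Ctrl and −0.07 in CKO, where none passed.

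Between genotypes none of the 39 passed without pairs. In Treg 13 were higher and 26 lower in CKO with a median of −0.15, while 50.3% of all genes were higher. With pairs 2 of 39 passed, both lower, against 2.18% of all genes. These were Bcl3, a nuclear IkappaB protein, at −1.04 (adjusted p 0.0437 with pairs and 0.733 without), and Nfkbia, which holds NF-kappaB in the cytoplasm, at −0.66 (adjusted p 0.0362 with pairs and 1 without), both named after their values were seen. Traf5 was higher in CKO Treg by 0.43 ± 0.13 without passing (adjusted p 0.485). In Teff 16 were higher and 23 lower (median −0.04), and Mlkl, the effector of necroptosis, was 6.49 in CKO against 5.07 in Ctrl, or 1.42 ± 0.33 (adjusted p 0.727). Without CKO Teff 3 the Mlkl difference was 1.76 (adjusted p 0.0491), and without CKO Teff 1 and 2, which stood apart by other-cell markers, it was 0.75 (adjusted p 0.856, spread from the other groups). In the interaction none of the 39 passed.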

How the data were processed

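Each of the 12 samples was measured on 1 Illumina array from total RNA. The values deposited by the authors are probe intensities on a log2 scale. GenomeStudio and limma (version 3.30.11) appear in the submitters' processing notes. How background was corrected, arrays were normalized or probes were filtered is not stated in the labels or notes, and the log2 scale was read from the range of the values. The values were used as deposited, and the number of arrays limits the precision.

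Of 31641 probes, 28197 carried a single gene symbol in the platform annotation, 5 several and 3439 none, and the first kind was used. Probes that exceeded the array median on 3 or more arrays were kept (17579). A gene was represented by its brightest kept probe (mean of the 12 arrays), giving 12119 genes. A member with no kept probe is described by its brightest probe and was not tested. Under R 4.3.3 the test was that of limma 3.58.1 (two-sided, lmFit with default eBayes) with 1 mean per group and all 12 arrays. It had 10.5 total degrees of freedom, of which 2.51 came from the prior. Benjamini-Hochberg adjustment ran over all 12119 genes of a comparison, and a gene passed at an adjusted p under 0.05. The scripts were tested on simulated data.

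The members, the signalling list and the marker lists were chosen with earlier results of these data known. A member's test is given where its adjusted p was under 0.05 or its unadjusted p under 0.01, and for Tnfrsf18, Tnfsf11, Tnfsf4 and Lta in all 4 pairwise comparisons. Other tests given were chosen after their values were seen.

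Pairing by replicate number was checked through the correlation of residuals across genes. The correlations of same-numbered Ctrl and CKO arrays were 0.519 to 0.589 in Treg. In Teff they were 0.348 to 0.737. For every CKO array the best correlation with a Ctrl array of its cell type was with that of its own number. Same-numbered Ctrl and CKO arrays were therefore taken as pairs. Values with pairs come from a model in which same-numbered arrays of a cell type form a block, and are given beside the genotype results where a call changed. Between Treg and Teff the correlations ran from −0.266 to 0.265 (Ctrl) and from 0.0413 to 0.325 (CKO), and numbers were not taken as pairs.

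Alternatives were quantile normalization, median centring, other filters, averaged or alternative probes of a gene, trended and robust eBayes, array weights, the block, a fit of only the 2 groups compared, and 12 fits that each left out 1 array. Leaving out CKO Teff 1 and 2 together, and leaving out each pair in the paired fit, were chosen after seeing the data. Promoter sequences came from RefSeq (GRCm38.p6) and were matched by gene.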

Additional observations from a re-analysis of the deposited data

Results flagged for a closer look

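Tnfrsf21, a death-domain receptor, was singled out because its pair differences between genotypes had opposite signs in the 2 cell types. CKO minus Ctrl was −0.25 ± 0.32 in Treg (limma, unadjusted p 0.448), with all 3 same-numbered pairs lower in CKO (−0.49, −0.08 and −0.17). The Treg groups overlapped near the array median, at 4.45, 4.46 and 5.14 in CKO and 4.94, 4.54 and 5.31 in Ctrl. An opposite difference in Treg is therefore not shown. In Teff the difference was 0.99, with all 3 pairs higher in CKO (1.83, 0.77 and 0.35). The test of the difference between the cell types gave −1.23 ± 0.45 with an unadjusted p of 0.019 and an adjusted p of 1 in limma, so it did not pass over all genes. The highest Tnfrsf21 values, 6.26 and 5.70, were those of CKO Teff 1 and 2, whose basophil and mast cell marker means were 9.42 and 8.84 and whose means of the CD8 and NK cell list, through its NK receptor genes and Eomes, were 6.80 and 7.55. The part of these markers in the difference was not tested.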

How the results depend on the processing

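Over 827 alternative values of the 37 named differences, 768 kept direction and side of the threshold, 14 lost the call, 32 gained one and 13 turned sign, the last all for differences that had not passed. Quantile normalization and median centring moved no all-gene median by over 0.1 and no member by over 0.117.

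Members called, CKO against Ctrl in Treg, were 0 in the main setting, 1 with the mean of a gene's probes, 1 with array weights (34 genes in all), 4 with the replicate block and 0 to 1 when each array was left out. In Teff they were 0, 1 with the replicate block and 0 to 1 when each array was left out. For Treg against Teff in Ctrl they were 2, 4 with the 75th percentile filter, 4 with trended and robust eBayes, 5 with array weights, 5 with the replicate block, 0 with only the groups compared and 1 to 4 when each array was left out. In CKO they were 1, 0 with the 75th percentile filter, which removes Tnfsf4, 2 with array weights, 0 with only the groups compared, 0 without CKO Teff 1 and 2 together and 1 to 2 when each array was left out. For the interaction they were 0, and 0 to 1 when each array was left out. The paired fit changed no other call of a member between genotypes. Between Treg and Teff the replicate numbers were not taken as pairs, and the block left 95 genes in Ctrl against 123, and 20 in CKO against 43. Genes called in Treg between genotypes were 12, against 264 with the replicate block and 25 with only the groups compared. The causes of these shifts were not tested.

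Signs turned for Lta in Teff between genotypes without CKO Teff 1 and 2 (0.41, and −0.32 to 0.22 when each array was left out), Tnfsf11 in Teff (−0.49 to 0.19) and Tnfsf4 in Treg (−0.02 to 0.08). They also turned for Fas between CKO Treg and Teff with another probe (0.03), and for Lta there with quantile normalization (0.00), without CKO Teff 1 and 2 (−0.47) and when each array was left out (−0.28 to 0.26). With 3 arrays a group, members near the array median such as Tnfsf4 are measured least surely.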
